A study of Mus musculus with 12 samples.

Results

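The 10 genes described here form the negative feedback arm of the FGF-ERK pathway together with ETS factors that it induces. They are the dual-specificity phosphatases *Dusp4*, *Dusp5* and *Dusp6*, the Sprouty genes *Spry1*, *Spry2* and *Spry4*, the Sprouty-related genes *Spred1* and *Spred2*, and the transcription factors *Etv4* and *Etv5*. They were chosen by gene symbol from the 55141 genes with deposited read counts, at a point when differences between these same groups were already known. Their values are therefore descriptions of these libraries and give no independent evidence for a difference. All 10 were among the 16388 genes that passed the filter on low counts over the 12 libraries, and the lowest count of any of them in any library was 104, for *Spry4*.

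The RNA came from mouse gastruloids, aggregates of 129/SVEV embryonic stem cells that form a body axis in culture. All of them received a pulse of CHIR 99021, a small molecule that activates Wnt signaling, were embedded in a Dextran-PEG hydrogel, were freed from it with Dextranase at 120 h after seeding, and were pooled within each replicate. Embedding took place at 72 h (early) or at 96 h (late), in a gel of 1.0 mM (dilute) or of 1.5 mM (dense), which gave 4 groups of 3 poly-A libraries. According to the methods, replicates are biological replicates. Early-embedded gastruloids also stayed in the gel for longer, so the stage at embedding and the time spent in the gel cannot be told apart, and gastruloids grown without a gel were not analysed here. Total counts per library ranged from 23011791 to 25149780 after early and from 25398824 to 27609422 after late embedding. Replicate 1 of the early dense group stood furthest from its group, with a chi-square per degree of freedom of 69.2 and 116 against the other replicates, where other pairs of replicates had 9.83 to 48.8. In bulk libraries such as these, fewer cells that express a gene and less of its RNA per cell cannot be told apart.

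FGF ligands bind receptor tyrosine kinases, and the signal passes through RAS, RAF and MEK to the kinases ERK1 and ERK2. ERK in turn raises the transcription of its own inhibitors. DUSP4 and DUSP5 are phosphatases that act on MAP kinases in the nucleus and DUSP6 is their cytoplasmic counterpart, Sprouty proteins act on the pathway between the receptor and RAF, and SPRED proteins bring the RAS inhibitor neurofibromin to the membrane. *Etv4* and *Etv5* encode factors of the PEA3 subfamily that are induced by FGF and carry part of its transcriptional response. In the mouse embryo, FGF signaling is high in the tail bud and the posterior presomitic mesoderm, where several of these genes serve as readouts of the pathway.

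In the deposited tables, which use the mm10 build, *Dusp4* lies at chr8:34807297-34819894, *Dusp5* at chr19:53529109-53542431 and *Dusp6* at chr10:99263231-99267489, all on the + strand. *Spry1* lies at chr3:37639947-37644598 on the + strand and *Spry2* at chr14:105891947-105896819 on the - strand. *Spred1* (chr2:117121374-117182279) and *Spred2* (chr11:19924375-20024026) are on the + strand and span the longest loci, of 60906 and 99652 bp. *Etv4* (chr11:101769742-101785371) and *Etv5* (chr16:22381309-22439719) are on the - strand. All 10 genes are annotated as protein-coding in GENCODE M21. *Dusp5* and *Spry1* overlap genes on the opposite strand that had mean counts of 7.08 (AC137853.2) and 39.6 (Gm42922). The strand setting of the counts is not given in the sources used here.

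The 250 bases before the RefSeq start (build GRCm38.p6, the assembly of mm10) were read for 7 of the 10 genes, and 4 windows are shown. *Spred1* and *Spry1* were picked because their levels differed between embedding times in opposite directions, *Dusp6* because it is the classical ERK phosphatase, and *Dusp5* because of its motifs. The window of *Dusp5* ends at the start in the deposited annotation, after 214 bases. The RefSeq start of *Spred1* lies 303 bases upstream of its start in the deposited annotation. For *Spred2* and *Etv5*, whose windows are not shown, the RefSeq starts lie downstream of the deposited start. Those windows therefore lie partly or wholly within the deposited gene. Capitals mark the words searched on both strands, which were CGGAAG (a core bound by many ETS factors, CTTCCG on the other strand), TGACG (bound by CREB and ATF factors, CGTCA on the other strand) and the CArG box of the serum response factor. None of the marked words overlapped another.
Spred1, chr2:117120821-117121070, + strand: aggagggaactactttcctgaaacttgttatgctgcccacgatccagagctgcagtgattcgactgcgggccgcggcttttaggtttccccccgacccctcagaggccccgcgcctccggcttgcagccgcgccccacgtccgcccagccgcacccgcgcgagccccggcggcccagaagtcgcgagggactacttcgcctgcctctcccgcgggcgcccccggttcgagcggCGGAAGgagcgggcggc
Spry1, chr3:37639697-37639946, + strand: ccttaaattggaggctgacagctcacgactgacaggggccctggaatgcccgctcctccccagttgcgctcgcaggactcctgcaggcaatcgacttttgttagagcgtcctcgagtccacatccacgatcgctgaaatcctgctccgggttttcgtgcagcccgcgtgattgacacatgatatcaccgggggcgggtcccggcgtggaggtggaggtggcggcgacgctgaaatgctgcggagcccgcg
Dusp6, chr10:99262981-99263230, + strand: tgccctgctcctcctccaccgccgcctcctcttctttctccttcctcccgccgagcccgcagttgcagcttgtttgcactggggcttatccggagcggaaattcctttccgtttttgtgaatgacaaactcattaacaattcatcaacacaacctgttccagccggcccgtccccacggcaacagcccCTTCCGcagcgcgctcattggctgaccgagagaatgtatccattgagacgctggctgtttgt
Dusp5, chr19:53528895-53529108, + strand: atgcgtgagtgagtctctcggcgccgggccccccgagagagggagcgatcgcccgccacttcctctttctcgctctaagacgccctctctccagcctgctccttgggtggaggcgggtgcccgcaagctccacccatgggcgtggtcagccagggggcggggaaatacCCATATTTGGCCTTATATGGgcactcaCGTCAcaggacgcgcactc

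The ETS word stood in the windows of *Spred1*, *Dusp6* and *Spred2*, 1 copy in each, and 13.6% of the 32851 mouse promoters in the same reference held it in a window of 250 bases. TGACG was found in *Dusp5* and *Spred2*, against 17.8% of all promoters. The *Dusp5* window held 2 CArG boxes that directly follow each other, a motif present in 1.47% of all promoters. The *Spry1* window and those of *Spry2* and *Etv5*, which are not shown, held none of these words. A match is a description of the sequence only, since no binding was measured.

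Per length, the genes differed widely in level. *Spry2*, which encodes an inhibitor upstream of RAF, had the highest level, with group means of 31.3 to 39.6 FPKM (fragments per kilobase of transcript, scaled to the mapped fragments of the library). *Spred1* followed at 18.7 to 25.1 FPKM, and *Etv5* and *Spred2* at 16.5 to 21.0 and 15.6 to 19.1 FPKM. *Dusp4* stood level with these genes after early embedding (21.6 ± 2.51 FPKM in the dilute and 22.4 ± 3.34 FPKM in the dense gel, SD, n = 3) and below them after late embedding (10.7 ± 0.982 and 7.49 ± 0.478 FPKM). *Dusp6* (10.9 to 15.4 FPKM), *Spry1* (9.51 to 15.3 FPKM), *Dusp5* (8.07 to 9.54 FPKM) and *Etv4* (5.30 to 6.79 FPKM) were lower, and *Dusp6* and *Spry1* had overlapping ranges. *Spry4* had the lowest level, 0.922 to 2.57 FPKM. Levels below are in CPM, counts scaled to the TMM-normalized library size, which compare libraries but not genes.

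**Figure D1:**
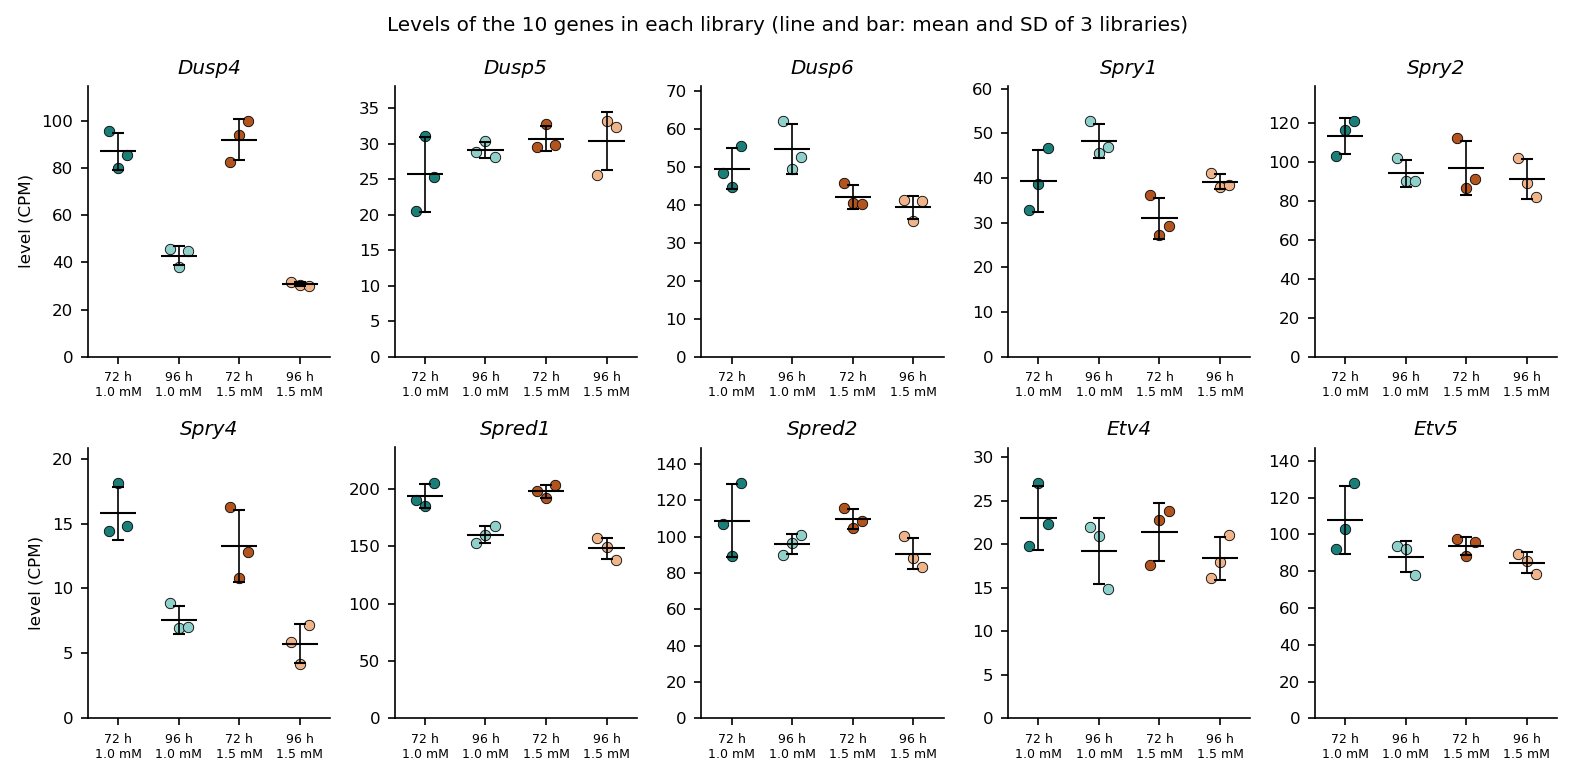
Level of each gene in CPM (vertical axes, starting at 0) in the 4 groups of embedding time and gel concentration (horizontal axes). Points are libraries, and lines and bars are the mean and SD of 3 libraries. *Dusp4* and *Spry4* separate the embedding times in both gels, and *Spred1* does so by a smaller margin. After embedding at 96 h, the libraries of *Dusp4*, *Dusp6* and *Spry1* lie lower in the 1.5 mM than in the 1.0 mM gel without overlap (edgeR adjusted p = 0.122, 0.129 and 0.253).

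The first question was whether the genes differed between early and late embedding in the same gel. *Dusp4* (2.03- and 2.98-fold in the dilute and the dense gel) and *Spry4* (2.08- and 2.31-fold) were higher after early embedding in both gels, and *Spred1* was higher by a smaller factor. *Spry1* had a lower mean after early embedding in both gels, and passed the test in the dense gel only narrowly. *Spred2* passed the test narrowly in the dense gel only, and *Dusp5*, *Dusp6*, *Spry2*, *Etv4* and *Etv5* did not pass it in either gel. Differences are given as log2FC, the log2 fold change of early over late embedding, with p-values of edgeR adjusted over all genes tested.

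*Dusp4*, whose product inactivates MAP kinases in the nucleus, was measured at 95.7, 80.1 and 85.4 CPM after early and at 45.8, 38.2 and 44.8 CPM after late embedding in the dilute gel. In the dense gel the values were 82.5, 93.8 and 99.8 CPM after early and 31.8, 30.3 and 30.2 CPM after late embedding. Every early library was thus above every late library, and the early libraries of the gels overlapped. The fold was 2.03 in the dilute gel (log2FC 1.02, SE 0.10, edgeR adjusted p = 1.61e-04) and 2.98 in the dense gel (log2FC 1.57, SE 0.08, edgeR adjusted p = 8.91e-05). *Dusp4* had the lowest p of the 15683 genes tested in the dense gel, and it ranked 41 of 15763 in the dilute gel. By the size of its log2FC it ranked 184 and 863.

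The other phosphatases had no such difference. *Dusp5* ranged from 20.6 to 32.8 CPM after early and from 25.6 to 33.2 CPM after late embedding, with a log2FC of -0.18 (95% CI -0.48 to 0.13) in the dilute and of 0.01 (95% CI -0.23 to 0.25) in the dense gel. *Dusp6*, the cytoplasmic ERK phosphatase, ranged from 40.1 to 55.4 CPM after early and from 35.7 to 61.9 CPM after late embedding. Its log2FC was -0.14 (95% CI -0.38 to 0.10) in the dilute and 0.10 (95% CI -0.10 to 0.29) in the dense gel. Both intervals of each gene hold 0 and exclude a change of the size seen for *Dusp4*.

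Among the Sprouty genes, *Spry4* (chr18:38586247-38601415, - strand) had 14.4, 18.1 and 14.8 CPM after early and 8.85, 6.94 and 7.02 CPM after late embedding in the dilute gel. In the dense gel it had 16.3, 10.8 and 12.8 CPM after early and 5.89, 4.17 and 7.17 CPM after late embedding. The early and late libraries overlapped in neither gel. The folds were 2.08 (log2FC 1.06, SE 0.15, edgeR adjusted p = 0.00169) and 2.31 (log2FC 1.21, SE 0.21, edgeR adjusted p = 0.00722). *Spry4* rested on 104 to 444 counts per library, and the 2 small RNA genes annotated on its opposite strand had 0 counts.

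*Spry1* went the other way. It had 32.8, 38.7 and 46.7 CPM after early and 52.7, 45.5 and 46.8 CPM after late embedding in the dilute gel, where the ranges overlapped. In the dense gel it had 36.2, 27.3 and 29.3 CPM after early and 41.0, 37.9 and 38.4 CPM after late embedding, and every early library was below the late ones. Its log2FC was -0.29 (SE 0.12, edgeR adjusted p = 0.191) in the dilute and -0.34 (SE 0.11, edgeR adjusted p = 0.04995) in the dense gel, where the adjusted p was below 0.05 in 7 of 16 alternative settings and at most 0.157. *Spry2* had 114 ± 9.21 CPM after early and 94.2 ± 6.75 CPM after late embedding in the dilute gel (SD, n = 3), without overlap (log2FC 0.27, SE 0.09, edgeR adjusted p = 0.0765). It overlapped in the dense gel (log2FC 0.08, SE 0.11). *Spry1*, *Spry2* and *Spry4* encode closely related inhibitors, and in the dense gel their log2FC ran from -0.34 to 1.21.

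*Spred1*, which encodes an adaptor of the RAS inhibitor neurofibromin, had 191, 185 and 205 CPM after early and 153, 160 and 168 CPM after late embedding in the dilute gel. In the dense gel it had 198, 192 and 204 CPM after early and 157, 149 and 138 CPM after late embedding. All 6 early libraries were above all 6 late libraries, with folds of 1.21 and 1.33. The log2FC was 0.28 (SE 0.08, edgeR adjusted p = 0.0459) and 0.41 (SE 0.06, edgeR adjusted p = 0.00430). In the dilute gel the adjusted p was below 0.05 in 10 of 16 alternative settings and at most 0.191, and in the dense gel in all 16. *Spred2* lay between 89.5 and 129.5 CPM after early and between 83.4 and 101 CPM after late embedding. Its log2FC was 0.19 (SE 0.12, edgeR adjusted p = 0.383) in the dilute gel, with 0.044 to 0.31 when single libraries were left out (0.044, edgeR adjusted p = 0.847, without early replicate 3). In the dense gel, where the groups did not overlap, it was 0.27 (SE 0.08, edgeR adjusted p = 0.0460, below 0.05 in 8 of 16 alternative settings).

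*Etv5* had 92.2 to 128 CPM after early and 78.0 to 93.4 CPM after late embedding in the dilute gel, and 88.3 to 97.5 CPM against 78.5 to 89.5 CPM in the dense gel. These ranges overlapped in both gels. Its log2FC was 0.30 (95% CI 0.04 to 0.56, edgeR adjusted p = 0.156) and 0.14 (95% CI -0.02 to 0.31, edgeR adjusted p = 0.191). *Etv4*, its close relative, had 14.9 to 27.0 CPM over all 12 libraries and a log2FC of 0.27 (95% CI -0.09 to 0.62) and 0.22 (95% CI -0.09 to 0.52). The intervals of both genes stay below the estimates for *Dusp4* and *Spry4* in the same gel, and they leave room for a log2FC of up to 0.62.

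**Figure D2:**
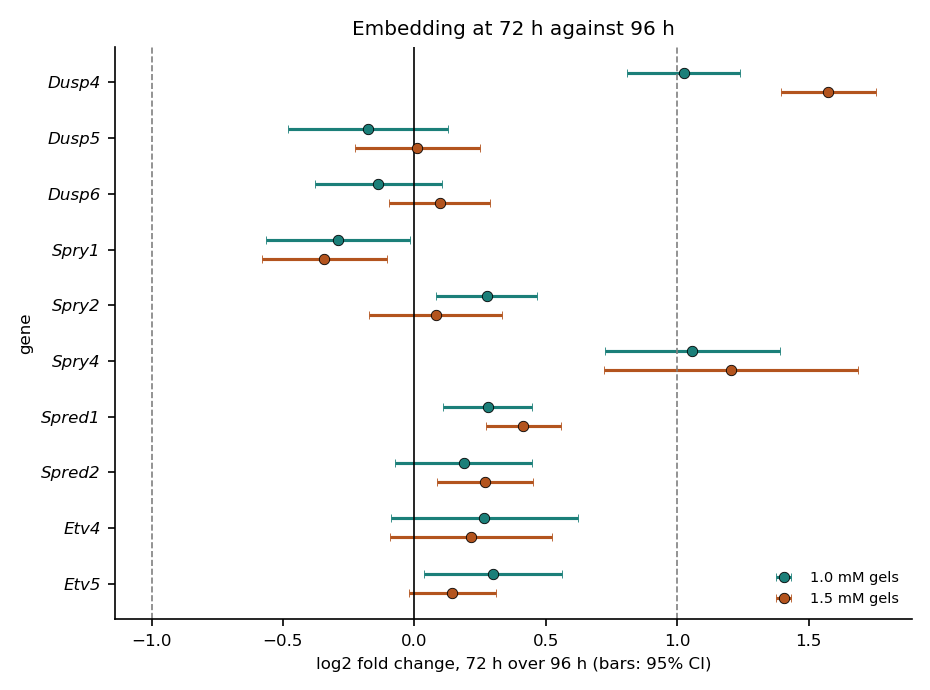
Log2 fold change of each gene between embedding at 72 h and at 96 h (horizontal axis, positive values higher at 72 h) in 1.0 mM gels and in 1.5 mM gels, with 95% confidence intervals as bars and dashed lines at -1 and 1. *Dusp4* (1.02 and 1.57) and *Spry4* (1.06 and 1.21) lie past the dashed line, and *Spry1* (-0.29 and -0.34) lies on the other side of 0 from *Spred1* (0.28 and 0.41).

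A gene was counted as differentially expressed (DE) when its adjusted p was below 0.05 and its log2FC was above 1 or below -1. By this rule 2 of the 10 genes, *Dusp4* and *Spry4*, were DE and higher after early embedding in the dilute gel, where 4.30% of the 15763 genes tested were DE (411 higher and 267 lower). The same 2 were DE in the dense gel, against 3.18% of 15683 genes. These backgrounds of 678 and 498 genes fell to 429 without replicate 3 of the late dilute and to 298 without replicate 3 of the late dense group. With the adjusted p alone, 3 genes were higher and 0 lower in the dilute gel (9.24% of all genes), and 4 were higher and 1 lower in the dense gel (19.3% of all genes). Early and late libraries did not overlap for 4 of the 10 genes in the dilute gel, as for 28.4% of all genes, and for 5 in the dense gel, as for 39.9% of all genes. Because these contrasts were known when the genes were proposed, nothing is read from the counts. The median log2FC of the 10 genes was 0.27 and 0.18, against -0.00545 and -0.00515 for all genes.

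In a fit over both gels with gel concentration as a covariate, 7 of the 10 genes had higher and 3 lower estimates after early embedding. *Dusp4* (log2FC 1.297, SE 0.10, edgeR adjusted p = 4.92e-07) and *Spry4* (log2FC 1.13, SE 0.14, edgeR adjusted p = 3.24e-05) were DE, against 4.66% of 16388 genes. With the adjusted p alone, 5 genes were higher and 1 lower, where 31.1% of all genes passed. Besides the DE genes these were *Spred1* (log2FC 0.35, edgeR adjusted p = 1.36e-04), *Spry1* (-0.32, edgeR adjusted p = 0.0113), *Spred2* (0.23, edgeR adjusted p = 0.0343) and *Etv5* (0.22, edgeR adjusted p = 0.0371). The adjusted p of *Spred1* and *Spry1* was below 0.05 in all 21 alternative settings of this fit, that of *Spred2* in 14 and that of *Etv5* in 11. In the dilute gel the DE calls rest on estimates close to the threshold. *Dusp4* had a log2FC of 0.95 without early replicate 1 and without late replicate 2, and *Spry4* of 0.95 without early replicate 2, so that 1 of the 2 was DE each time, while the adjusted p of the gene that lost its call stayed at or below 0.00406. Without replicate 1 of the early dense group, the log2FC in the dense gel was 1.65 for *Dusp4*, 1.03 for *Spry4*, 0.41 for *Spred1* and -0.47 for *Spry1*.

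Markers of several cell types moved with embedding time beside these genes. The 7 cardiac and anterior mesoderm markers summed to 362 to 849 CPM in early and to 61.3 to 312 CPM in late libraries. In the fit over both gels, where 4.66% of all genes were DE, 6 of the 7 were DE and higher after early embedding. In the dilute gel alone 7 were DE and higher, and in the dense gel alone 3 were. The 7 somite markers summed to 338 to 671 CPM in early and to 817 to 1136 CPM in late libraries, and 4 of the 7 were DE and lower. In the dilute gel alone 5 were DE and lower, and in the dense gel alone 2 were. Of the posterior markers, *T*, the gene of the tail bud factor Brachyury, lay between 180 and 290 CPM in early and between 69.2 and 137 CPM in late libraries, and 2 of the 5 tested were DE in the other direction. In the dilute gel alone 1 posterior marker was DE and higher and 2 lower, and in the dense gel alone 1 was higher and 0 lower. Of the 7 naive pluripotency and germ-cell-like markers 5 were DE and lower, as was 1 of 5 presomitic mesoderm markers. The presomitic markers had no common direction. By the adjusted p alone, 1 was higher and 1 lower over both gels. In the dilute gel alone 1 was DE and lower, and in the dense gel alone 1 was DE and higher. Extraembryonic markers had 1 DE gene in each direction, with *Afp* at 0 in every library, and neural tube, endoderm and endothelium markers had 0 in this fit. The extraembryonic list shares *Hand1* with the cardiac list and *Cdx2* with the posterior list, so the counts of these lists are not separate. The part of these shifts in the values of the 10 genes was not tested.

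The second question was whether the genes differed between the gels at the same embedding time. None of the 10 genes was DE in either comparison, and neither was any of the 15563 genes tested after early or of the 15861 tested after late embedding (0% by edgeR, with or without the threshold on the log2FC). After late embedding, 12 genes were DE by edgeR without replicate 3 of the dense group and 2 without replicate 1 of it. At an unadjusted p below 0.05, edgeR counted 1074 and 1578 genes, while DESeq2 called 4 and 10 genes DE and limma-voom 0 and 0. No DESeq2 call was among the 10 genes. The estimates were negative, lower in the dense gel, for 6 of the 10 genes after early and for 9 after late embedding. The share of negative estimates over all genes was not computed, and nothing is read from these counts. Their median log2FC of dense over dilute gel was -0.15 and -0.10, against -0.00244 and -0.00465 for all genes.

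After late embedding, 3 of the 10 genes were lower in the dense than in the dilute gel without overlap between the libraries, where 15.5% of all genes did not overlap. *Dusp4* had 42.9 ± 4.11 CPM in the dilute and 30.8 ± 0.908 CPM in the dense gel (SD, n = 3), a log2FC of -0.48 (SE 0.08). *Dusp6* had 61.9, 49.4 and 52.4 CPM in the dilute and 41.2, 35.7 and 40.9 CPM in the dense gel, a log2FC of -0.47 (SE 0.09). For *Spry1*, an inhibitor upstream of RAF, the log2FC was -0.31 (SE 0.08), from 48.3 ± 3.80 against 39.1 ± 1.67 CPM (SD, n = 3). The edgeR adjusted p was 0.122, 0.129 and 0.253, and these genes ranked 13, 35 and 130 by p of 15861. For all 3 genes the side of 0.05 depended on the method. In the same order, the adjusted p was 9.29e-04, 0.00198 and 0.0920 with DESeq2, and with edgeR it was 6.90e-05, 1.67e-05 and 0.0475 without the filter on low counts and 0.00191, 0.00120 and 0.0317 with replicate numbers as blocks. In the same libraries, *T* lay between 91.5 and 137 CPM in the dilute and between 69.2 and 82.7 CPM in the dense gel. The 5 posterior markers tested had a median log2FC of -0.95, and 0 passed by the adjusted p. *Fgf8*, of the same list, overlapped between the gels (15.9 to 20.1 CPM in the dilute and 17.1 to 21.9 CPM in the dense gel). The part of such marker shifts was not tested.

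After early embedding, *Spry1* (39.4 ± 6.95 CPM in the dilute and 30.9 ± 4.66 CPM in the dense gel, SD, n = 3) and *Dusp6* (49.5 ± 5.46 and 42.1 ± 3.15 CPM, SD, n = 3) again had lower means in the dense gel. Their log2FC was -0.35 (95% CI -0.67 to -0.03) and -0.23 (95% CI -0.46 to -0.0038), with an edgeR adjusted p of 0.704 for both. Without replicate 3 of the early dilute group the log2FC was -0.21 for *Spry1* and -0.14 for *Dusp6*. None of the 10 genes separated the gels without overlap here, against 11.1% of all genes. *Dusp4* had 87.0 ± 7.92 CPM in the dilute and 92.0 ± 8.81 CPM in the dense gel (SD, n = 3), a log2FC of 0.08 (95% CI -0.15 to 0.30). In the order of its 4 groups, the early groups therefore did not differ beyond their spread, whereas the late groups did not overlap.

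**Figure D3:**
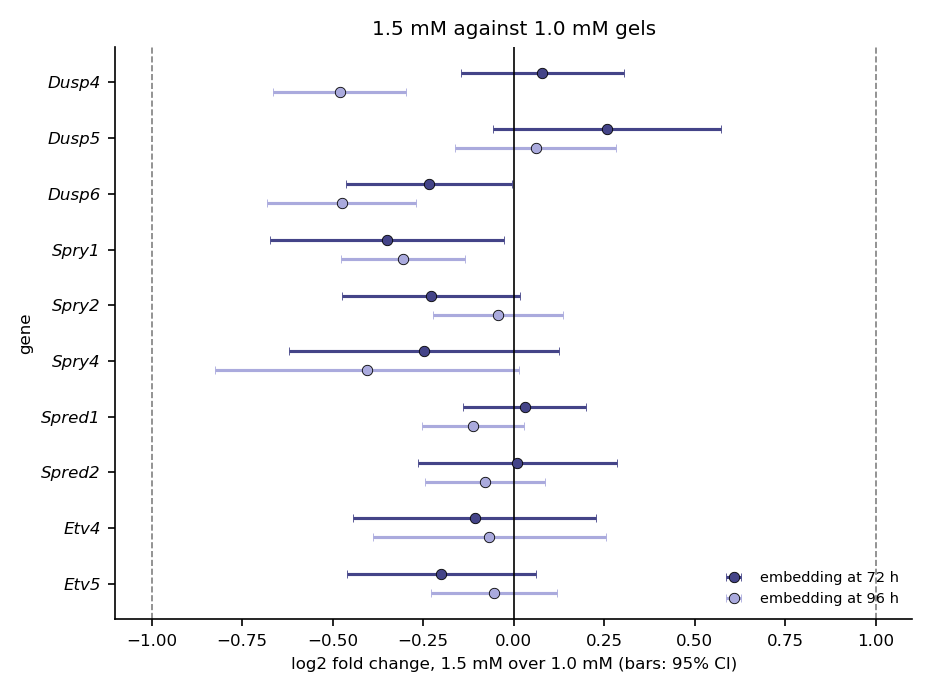
Log2 fold change of each gene between 1.5 mM and 1.0 mM gels (horizontal axis, positive values higher in 1.5 mM) after embedding at 72 h and at 96 h, with 95% confidence intervals as bars and dashed lines at -1 and 1. The intervals of *Dusp4*, *Dusp6* and *Spry1* at 96 h lie below 0, and none of the 10 genes reaches a dashed line.

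Whether the effect of embedding time differed between the gels was tested by the interaction of both factors. Of the 10 genes, only *Dusp4* had an unadjusted p below 0.05. Its log2FC by embedding time was 0.56 larger in the dense than in the dilute gel (SE 0.13, 95% CI 0.28 to 0.84), with an edgeR adjusted p of 0.953 and rank 5 of 16388 genes by p. Without the filter on low counts its edgeR adjusted p was 0.00998. By edgeR no gene passed the threshold on the adjusted p (0% of 16388, with 708 genes at an unadjusted p below 0.05), and DESeq2 and limma-voom called 0 genes DE. For the other 9 genes the interaction lay between -0.18 and 0.24 on the log2 scale. The late groups of *Dusp4* differed by -0.48 between the gels and the early groups by 0.08.

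Across the 12 libraries, the log2 CPM of the genes formed different patterns, which are given as a description, since the points share the 4 groups. *Dusp4* varied with *Spred1* (Pearson's r = 0.95) and *Spry4* (r = 0.89), and hardly with *Dusp6* (r = 0.14). After the group means were subtracted, the first of these values was 0.16 and the next -0.23, so that these genes were alike between groups and not among replicates. *Spred1* and *Spred2* varied together on both counts (r = 0.82, and 0.83 within groups), and so did *Dusp6* and *Spry1* (r = 0.70, and 0.72 within groups). *Spry1* and *Spry2* had a low r over all 12 libraries (r = 0.27) but followed each other among replicates (r = 0.85 within groups). The same held for *Spry1* and *Etv5* (0.13 over all libraries and 0.77 within groups).

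**Figure D4:**
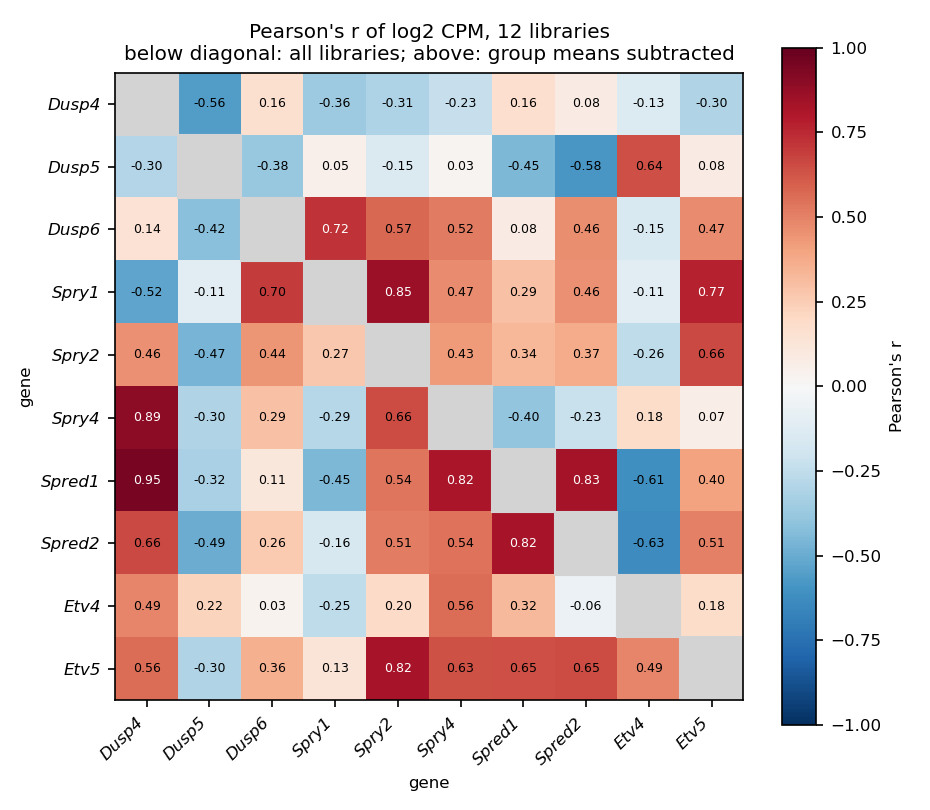
Pearson's r of log2 CPM between the 10 genes over 12 libraries, below the diagonal with all libraries as they are and above it with group means subtracted (color scale from -1 to 1). *Dusp4* pairs with *Spred1* (0.95) and *Spry4* (0.89) below the diagonal only, whereas *Spred1* and *Spred2* pair on both sides (0.82 and 0.83).

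For the 3 genes with the lowest p over both gels, the most similar gene was sought by Pearson's r over the 12 libraries among 11334 genes averaging 100 counts or more. *Dusp4* was closest to *Canx*, which encodes the chaperone calnexin (r = 0.98), *Spred1* to *Fzd3*, which encodes a Wnt receptor (r = 0.98), and *Spry4* to *Ccne2*, which encodes cyclin E2 (r = 0.97). Within groups the closest genes were *Gigyf2* for *Dusp4* (r = 0.99) and *Slc30a1* for *Spred1* (r = 0.92), whereas *Ccne2* was again the closest to *Spry4* (r = 0.89). These values are the highest of many and carry no test.

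The other genes of the pathway give the setting in which the 10 genes were measured. Of 60 genes in 5 lists, 59 passed the filter, and in the fit over both gels 3 were DE and higher after early embedding and 3 were DE and lower, against 4.66% of all genes. With the adjusted p alone 16 were higher and 11 lower (31.1% of all genes). The median log2FC of the 59 genes was 0.09. In the dilute gel alone, 3 were DE and higher and 3 lower, and in the dense gel alone 0 were higher and 2 lower. These lists were also drawn up with earlier results of these data known.

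Of the 11 ligands, 2 were DE and higher after early embedding and 2 DE and lower in the fit over both gels, from which the log2FC of the other lists is given too. *Fgf10*, which signals from mesenchyme to epithelium in many organs, had 44.4 and 37.4 CPM after early against 16.0 and 19.0 CPM after late embedding in the dilute and the dense gel (log2FC 1.22, SE 0.15, edgeR adjusted p = 3.71e-05). *Fgf3* was also higher (log2FC 1.22, SE 0.41, edgeR adjusted p = 0.0334). *Fgf4*, a ligand of the early embryo and the primitive streak, had 0.900 and 0.624 CPM after early against 4.86 and 3.59 CPM after late embedding (log2FC -2.47, SE 0.22, edgeR adjusted p = 2.44e-06). *Fgf18* was lower too (log2FC -2.30, SE 0.47, edgeR adjusted p = 0.00215), from group means of at most 1.16 CPM. *Fgf3* was not called by DESeq2 (adjusted p = 0.0553) or limma-voom (adjusted p = 0.0575), nor without replicate 1 of the early dilute, early dense or late dilute group or replicate 3 of either late group, where the adjusted p lay between 0.0574 and 0.0904.

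Of the 5 receptor genes, *Fgfr3* was DE and higher after early embedding (log2FC 1.01, SE 0.27, edgeR adjusted p = 0.0114), with 42.8 and 30.7 CPM against 13.5 and 23.7 CPM. By the adjusted p alone, 1 receptor gene was higher and 1 lower. In the dense gel alone 0 receptor genes were DE. The libraries of *Fgfr3* overlapped there, with 42.1, 28.0 and 22.1 CPM after early and 23.2, 31.9 and 15.8 CPM after late embedding. Over both gels, the log2FC of *Fgfr3* lay between 0.80 and 0.97 without replicate 1 of either early group, replicate 3 of either late group or replicate 2 of the late dilute group. None of the 18 genes of the cascade from the receptor adaptors to ERK was DE, although 8 were higher and 1 lower by the adjusted p alone. The lowest p there belonged to *Braf*, which encodes a RAF kinase (log2FC 0.46, SE 0.07, edgeR adjusted p = 1.77e-04).

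None of the 12 other feedback genes, a list that also held *Etv1*, was DE in the fit over both gels, with 5 higher and 3 lower by the adjusted p alone, and in the dilute gel alone 1 of them, *Dusp9*, was DE and higher. *Il17rd*, which encodes the FGF antagonist SEF, had a log2FC of 0.60 (SE 0.07, edgeR adjusted p = 1.43e-05). *Dusp9*, a phosphatase of the same subfamily as *Dusp6*, had 81.4 and 67.3 CPM after early against 36.3 and 38.7 CPM after late embedding, a log2FC of 0.98 (SE 0.14, edgeR adjusted p = 1.09e-04) just under the threshold. Its log2FC was 1.01 with limma-voom, and between 1.02 and 1.05 without replicate 3 of the early dense group, replicate 2 of the late dilute group, or replicate 1 or 2 of the late dense group. Of 13 immediate-early and growth targets, *Myc*, a growth regulator, was DE and lower after early embedding, with 25.1 and 22.4 CPM against 62.4 and 50.6 CPM (log2FC -1.25, SE 0.10, edgeR adjusted p = 5.94e-07), and 3 were lower and 0 higher by the adjusted p alone.

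**Figure D5:**
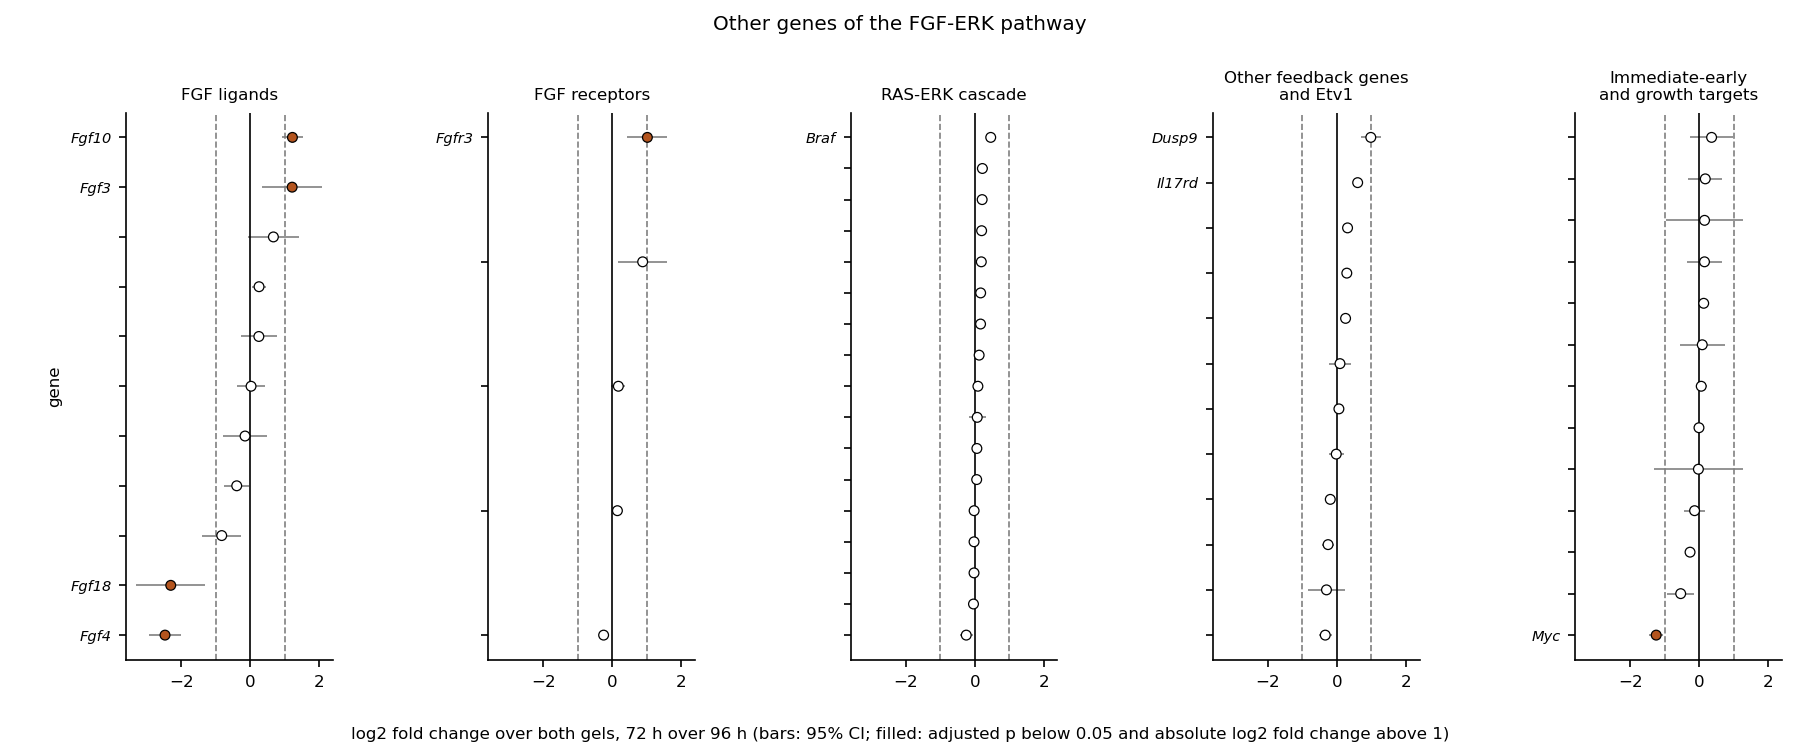
Log2 fold change over both gels between embedding at 72 h and at 96 h (horizontal axes, positive values higher at 72 h) for other pathway genes in 5 lists, with 95% confidence intervals as bars, dashed lines at -1 and 1, filled points for DE genes, and names for the genes whose values are given in the text. The 6 DE genes are *Fgf10*, *Fgf3* and *Fgfr3* on the right and *Fgf4*, *Fgf18* and *Myc* on the left, and no cascade gene is DE.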

How the data were processed

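The 12 libraries hold poly-A RNA of gastruloids in 4 groups of 3, mapped to groups by the labels. The authors trimmed the paired-end reads with cutadapt 4.4, aligned them to mm10 with STAR 2.7.10b and deposited raw counts per gene, which the methods credit to STAR and the table's name to HTSeq. The authors computed FPKM values with Cufflinks 2.2.1.3 and deposited them in a second table. A deposited table of the authors' DESeq2 comparisons (fold changes and p-values) was not used. The 10 genes and the gene lists were chosen with earlier results of these data known.

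Differential expression was computed in R 4.3.3 (edgeR 4.0.16; alternatives in DESeq2 1.42.0 and limma 3.58.1). Counts without the 36 mitochondrial genes were filtered with filterByExpr (minimum count 10, minimum total 15), normalized with TMM and tested by glmQLFit and glmQLFTest, on the libraries of the 2 groups compared or, over both gels and for the interaction, on all 12. The p-values were adjusted by Benjamini-Hochberg over all genes tested, with a threshold of 0.05 and an absolute log2 fold change above 1. Log2 CPM for correlations used a prior count of 2, and intervals are at 95%. Depth was 23011791 to 27609422 counts per library. For genes with many counts, the spread between replicates and not counting error limits the precision at this depth. For genes with few counts, such as *Fgf4* and *Fgf18*, counting error limits it too. Counts of replicates differed by a chi-square of at least 9.83 per degree of freedom, so that no library was a copy of another.

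Named genes are the 10 genes, every DE gene of each pathway list over both gels or else the 2 with the lowest p, and the most similar genes of the 3 members with the lowest p. A gene that this rule would name is not reported here. Marker lists (cardiac and anterior mesoderm, somite, posterior and neuromesodermal, presomitic mesoderm, neural tube, endoderm, endothelium, naive pluripotency and germ-cell-like, extraembryonic) are described by counts and sums. Same-numbered replicates deviated together (r of 0.103 to 0.215) between early and late embedding in the dense gel. In the other comparisons at least 1 pair had r below 0.1, but every r was positive, from 0.0467 to 0.331. These values do not settle whether the numbers are pairs. The main tests used no replicate block in any comparison, and fits with the numbers as blocks are given as an alternative. Alternatives were DESeq2, limma-voom, limma on log2(1 + FPKM) for genes with a mean FPKM of at least 0.1, RLE or upper quartile scaling, omission of the low-count filter or its replacement by 1 CPM in 3 libraries, retention of mitochondrial genes, a replicate block, each library left out, all 12 libraries in the fit, DE calls by the adjusted p alone, and a limit of 0.01 on it. Promoter windows were taken from RefSeq and overlaps from GENCODE M21.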

Additional observations from a re-analysis of the deposited data

How the results depend on the processing

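Over embedding time, *Dusp4* and *Spry4* lost a call only through the threshold on the log2 fold change. The count of DE members in the 1.0 mM gels was 1 to 2 when each library was left out (1 without early replicate 1, early replicate 2 or late replicate 2) and 0 with limma on log2(1 + FPKM), a scale that shrinks low levels. The same limma fit gave 1 member in the 1.5 mM gels, 1 over both gels and 2 of the pathway genes. Without the fold threshold the counts were 5, 6 and 27. Estimates near 0 changed sign. *Dusp5* in the 1.5 mM gels was -0.015 with upper quartile normalization and -0.10 to 0.078 with single libraries left out, where *Spry2* ran from -0.042 to 0.17, and *Dusp6* over both gels ran from -0.068 to 0.036. Of 844 recomputed values, 809 were unchanged, 23 lost a call, 5 gained one and 7 changed sign. They were fold changes of single genes, unchanged when direction and side of the threshold stayed the same, and a few correlations between members. For the correlations, unchanged means that r moved little on the FPKM scale. With the replicate block, 2, 2 and 2 members (each gel and both gels) and 6 pathway genes were DE, with no call changed. Between gels the block called 0 members DE, but after late embedding the adjusted p was 0.00191 for *Dusp4*, 0.00120 for *Dusp6* and 0.0317 for *Spry1*. The interaction of *Dusp4* stayed between 0.50 and 0.63, with an adjusted p from 0.00998 (no low-count filter) to 1.00. Over all genes, the counts of DE genes by embedding time (678, 498 and, over both gels, 763) were 151, 84 and 135 with limma on FPKM, and 429 to 703, 298 to 636 and 707 to 900 with single libraries left out, which took the late count of 0 between gels to 12 (without late dense replicate 3). The count of 0 between gels (early, late) and for the interaction was 16, 51 and 4 with the block, 56, 65 and 112 without a filter on low counts, 4, 10 and 0 with DESeq2, and 2, 2 and 4 with limma on FPKM. The cause was not tested.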

Other observations

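The immediate-early genes *Egr1*, *Fos* and *Fosb*, which many growth and stress signals induce, were singled out after their values were seen. *Egr1* had 48.9 to 113 CPM (early) and 36.6 to 132 CPM (late) in the dilute gel and 11.0 to 23.9 and 10.6 to 21.7 CPM in the dense gel. The gels thus did not overlap at either time, as for 11.1% of all genes after early and 15.5% after late embedding. *Fos* had 8.07 to 79.4 and 8.79 to 57.1 CPM in the dilute gel and 4.26 to 5.46 and 3.77 to 7.46 CPM in the dense gel. *Fosb* had 5.49 to 83.4 and 10.6 to 70.1 CPM in the dilute gel and 1.05 to 3.64 and 1.57 to 4.80 CPM in the dense gel. The dilute libraries spread widely, and none of these genes was called between gels by edgeR in the main fit (*Egr1* log2FC -2.23 and -2.12, adjusted p = 0.423 and 0.129). That fit called 0 of all genes between gels. Values of these genes in the alternative settings, some of which did call genes between gels, are not given. The median log2FC between gels of the 13 immediate-early and growth targets tested was -0.28 after early and -0.56 after late embedding, against -0.00244 and -0.00465 for all genes.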
